A study of Oncorhynchus mykiss with 14 samples.

Results

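miR-204-5p was followed across 3 fat depots of the rainbow trout (Oncorhynchus mykiss) in small RNA libraries made from isolated mature adipocytes, which store the lipid of the tissue. The member was chosen by its identifier: of the 899 miRNA entries in the deposited table, 256 of them carrying Atlantic salmon names (prefix ssa), 1 begins with ssa-miR-204, namely ssa-miR-204-5p, with a mature length of 22 nt. The number miR-211, which has the same seed in other vertebrates, matched 0 entries. No further entry carried the same reads as miR-204-5p, and it was above 0 in all 14 libraries.

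There were 4 libraries from visceral fat (VAT, numbered 1, 3, 4 and 5), 5 from fat under the skin (SAT, subcutaneous) and 5 from fat within muscle (IMAT, intramuscular). All fish were adult, untreated controls held under the same conditions and fasted before sampling, and cells were released from each dissected depot with collagenase. Whether the libraries of 1 depot stem from different fish is not stated, so the p-values measure only how these libraries vary, which may be technical. In such bulk libraries, fewer cells of a type and less RNA per cell cannot be told apart.

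A miRNA guides silencing complexes to messenger RNAs that match its seed, and so lowers their translation and stability. In mammals miR-204 lies in an intron of the ion channel gene TRPM3 and lowers RUNX2, the master transcription factor of bone-forming cells. In stromal progenitors it thereby favours the adipocyte fate over the osteoblast fate. In medaka fish it is known for its part in eye development. Salmonid genomes are duplicated relative to other fish, so the same mature miRNA can come from more than 1 locus, and the counts do not tell these loci apart.

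Facts of the libraries bear on every level given here. Summed counts on miRNA entries ran from 4525742 to 11076843 in VAT, from 2060776 to 4042846 in SAT and from 759369 to 11843805 in IMAT. A list of muscle miRNAs (miR-1, miR-133, miR-206, miR-208 and miR-499, 9 entries) took 65.5 to 89.6% of the IMAT counts, 3.37 to 11.9% of the SAT counts and 0.0888 to 4.65% of the VAT counts, although the cells are labelled as adipocytes in every depot. The 9 entries are 6 distinct ones, the others repeating the same reads; with such entries joined throughout the table, the muscle share was 44.0 to 78.4% in IMAT, 1.52 to 5.56% in SAT and 0.0431 to 1.94% in VAT. None of the lists used holds a miRNA that defines the adipocyte, so that label was not checked. Because the muscle share differs this much between depots, miR-204-5p is given on 3 scales. The first is deposited CPM (reads per 1000000 counts of the library). The second is TMM-scaled CPM, divided further by edgeR's trimmed-mean factor, which aims to balance the bulk of entries between libraries. The third is non-muscle CPM (reads per 1000000 counts outside the muscle list).

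miR-204-5p was scarce in the libraries from visceral fat. The VAT libraries 1, 3, 4 and 5 held 59, 161, 51 and 95 reads of it, or 11.07, 35.58, 7.65 and 8.58 deposited CPM. Replicate 3 stood above the other VAT libraries and was also the VAT library with the most muscle miRNA. With reads taken as independent, counting error was small beside this gap. The exact 95% Clopper-Pearson interval was 30.3 to 41.5 CPM for VAT 3 and 8.42 to 14.3 for VAT 1, the next highest. Intervals cover counting error only. They may be too narrow even for that, because reads of an amplified library are not independent molecules.

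The libraries from fat under the skin held far more. SAT libraries 1 to 5 held 2832, 1404, 1858, 1998 and 3891 reads, or 1374.24, 375.93, 459.58, 724.53 and 1012.37 deposited CPM. Replicates 1 and 5 were the highest and replicate 2 the lowest, a spread of 3.66-fold within the depot. The lowest SAT library lay above the highest VAT library.

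In deposited CPM the libraries from fat within muscle lay between, but outside the muscle list they fell within the SAT range, as given below. IMAT 5, the deepest library, held 3055 reads of miR-204-5p, and each of the other IMAT libraries held at most 259. On the deposited CPM scale libraries 1 to 5 held 71.52, 45.83, 63.96, 163.29 and 257.94. All 5 lay above every VAT library and below every SAT library on this scale. The means were 15.7 ± 13.3 deposited CPM in VAT (SD, n = 4), 789 ± 411 in SAT (n = 5) and 121 ± 89.3 in IMAT (n = 5).

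The position of miR-204-5p within a library does not depend on any scaling. Among the 256 named entries it ranked 140 to 174 by read count in VAT, 63 to 73 in SAT and 68 to 87 in IMAT, where rank 1 is the most abundant. No VAT library ranked it as high as any library of the other depots, while SAT and IMAT ranks overlapped. The share of all entries whose ranks part in this way was not worked out, so how unusual this is stays unknown.

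**Figure D1:**
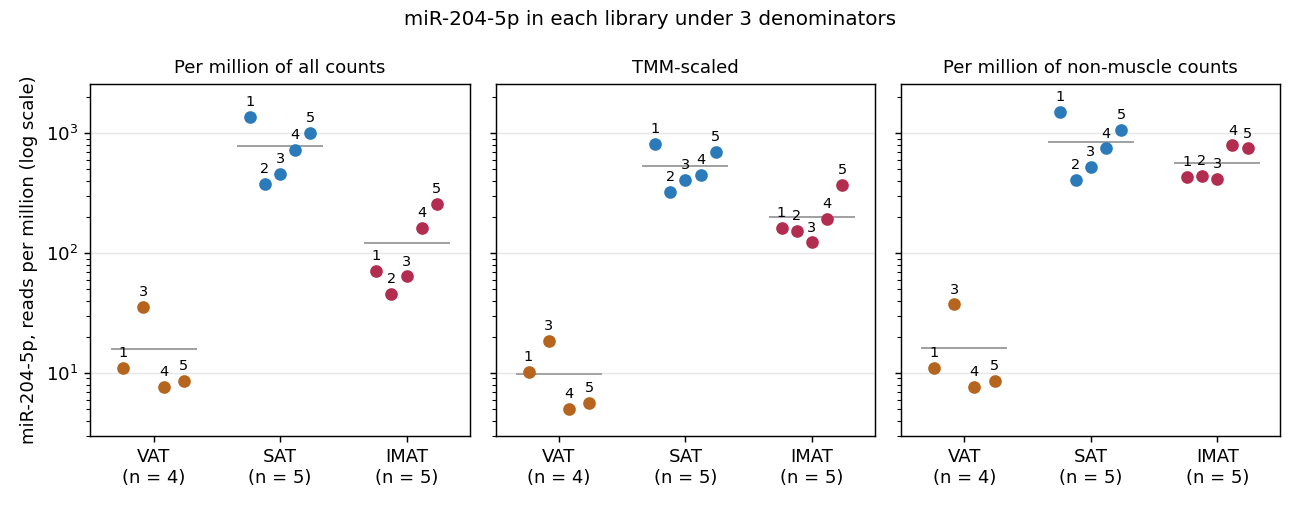
Level of miR-204-5p in each library (points, numbered by replicate) by depot, on a log axis in CPM, with the depot mean as a line; the panels use all counts, TMM scaling and counts outside the muscle list as denominator. VAT lies lowest in each panel. IMAT and SAT are apart over all counts, meet at 1 library each with TMM scaling (374 in IMAT 5, 324 in SAT 2), and with the muscle list left out all of IMAT (418 to 793) falls within SAT (411 to 1502).

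The comparison of SAT with VAT asks how fat under the skin differs from fat around the viscera. miR-204-5p was higher in SAT. On the TMM scale, SAT libraries 1 to 5 held 811, 324, 410, 453 and 698 CPM and VAT libraries 1, 3, 4 and 5 held 10.2, 18.4, 5.005 and 5.63. The groups did not overlap, and the lowest SAT library was 17.6 times the highest VAT library; of all 327 entries tested, 16.2% did not overlap in this comparison. The log2 difference was 5.78 ± 0.60 (SE, 95% interval 4.48 to 7.07), a 54.9-fold difference (edgeR quasi-likelihood test, Benjamini-Hochberg adjusted p = 3.1e-05 over 327 entries). In this comparison 12.5% of all entries passed, 7.34% being higher in SAT. Among the 228 named entries tested, miR-204-5p had the largest log2 difference of this fit, and 4 predicted entries without a known name lay above it. Without VAT 4 the log2 difference was 5.18, and without VAT 1 it was 5.19, and the call was kept.

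The comparison of IMAT with VAT sets fat between muscle fibres against visceral fat. miR-204-5p was again higher outside the viscera. IMAT libraries 1 to 5 held 163, 152, 123, 193.9 and 374 TMM-scaled CPM, all above the VAT range of 5.005 to 18.4, with the lowest IMAT library 6.67 times the highest VAT library. In this comparison 15.0% of all entries did not overlap. The log2 difference was 4.36 ± 0.56 (SE, 95% interval 3.15 to 5.56; edgeR adjusted p = 0.00018), a 20.5-fold difference, where 13.5% of all entries passed. It ranked 14 among the 228 named entries, behind miRNAs of muscle and others.

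The comparison of IMAT with SAT gave an answer that depended on the denominator. With TMM scaling, SAT held 539 ± 206.05 (SD, n = 5) and IMAT 201 ± 99.7 (n = 5), and IMAT 5, at 374, lay above SAT 2, at 324, so the depots overlapped (18.7% of all entries did not). The log2 difference was -1.42 ± 0.45 (SE, 95% interval -2.39 to -0.45), with an edgeR adjusted p of 0.081, which missed the threshold of 0.05 that 6.73% of all entries passed. With library totals as the only scaling, the difference was -2.71 and passed (edgeR adjusted p = 0.005), and in limma on log2(CPM + 1) it was -2.84 and passed (adjusted p = 0.0011). With median-ratio factors it was -1.11 (edgeR adjusted p = 0.17), and with the muscle list left out of the totals -1.06 (edgeR adjusted p = 0.28). In DESeq2 it was -1.11 (adjusted p = 0.0995). With non-muscle library totals, an alternative added after seeing the data, it was -0.59 (edgeR adjusted p = 0.53). In 24 of 26 alternatives no call was made, as with TMM. Most of the 26 kept TMM scaling, the fits with 1 library left out among them, so this tally does not weigh against a call. The direction was the same in all 26, with the mean lower in IMAT.

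**Figure D2:**
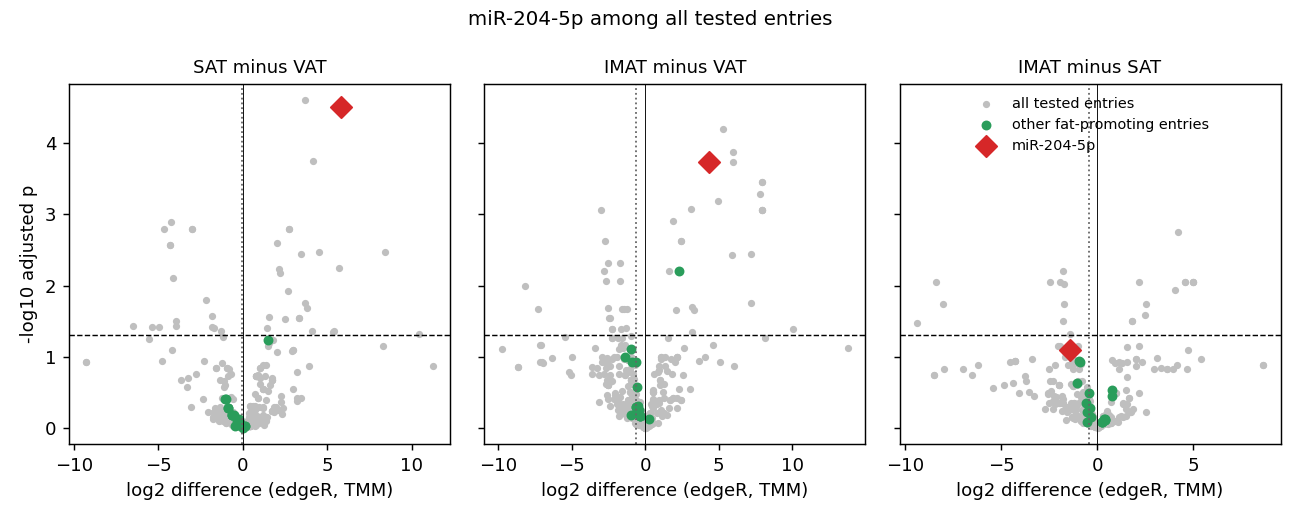
Each point is 1 of the 327 tested entries, with its log2 difference between depots (x axis, edgeR with TMM scaling) and -log10 of its adjusted p (y axis); the dashed line is the threshold of 0.05 and the dotted line the median of all entries. miR-204-5p (diamond) lies at 5.78 in SAT minus VAT, at 4.36 in IMAT minus VAT and, below the threshold, at -1.42 in IMAT minus SAT, while the other fat-promoting entries (green) lie between -1.39 and 2.29.

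Much of this movement between scalings was shared by all entries, because a change of library factors shifts the entries of a comparison nearly alike. The median log2 difference of all entries in IMAT minus SAT was -0.43 with TMM and -1.81 with library totals, and relative to this median miR-204-5p lay at -0.99 and -0.90. In IMAT minus VAT the median was -0.60 with TMM and -1.98 with library totals, and miR-204-5p lay at 4.95 and 4.92 relative to it. In SAT minus VAT it lay at 5.82 and 5.75. Over all 26 alternatives the value relative to the median ran from -1.26 to -0.76 in IMAT minus SAT, from 4.34 to 5.69 in IMAT minus VAT and from 5.29 to 6.33 in SAT minus VAT. Narrow ranges over scalings follow from subtracting the median and do not test the difference between IMAT and SAT. With no filter the IMAT minus SAT median was 0.0 over 842 entries, which is another reference.

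**Figure D3:**
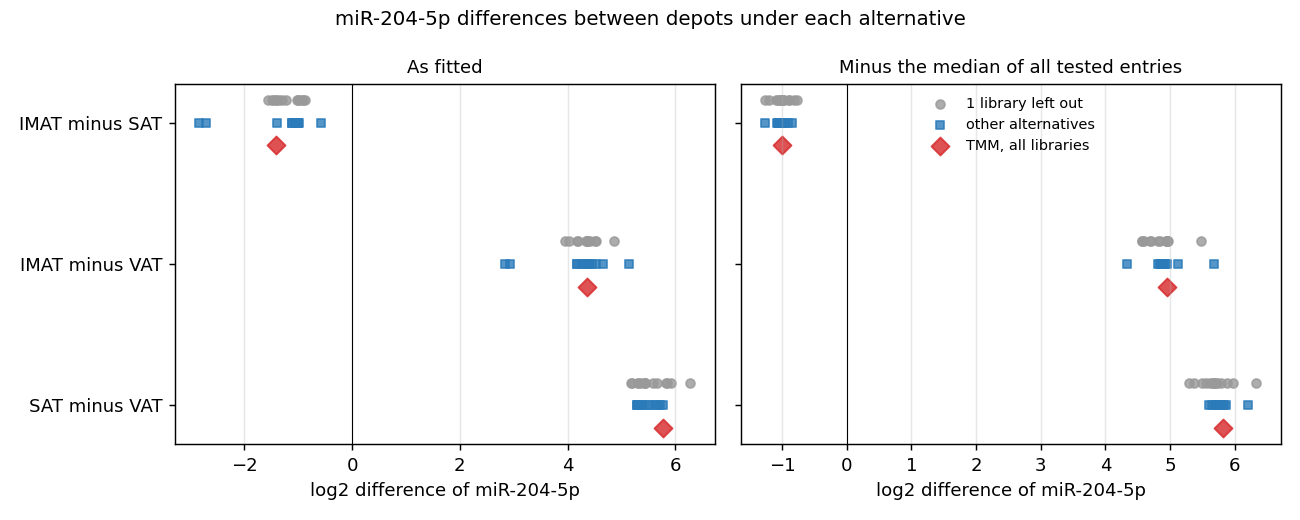
Log2 difference of miR-204-5p between depots (x axis) for each comparison, as fitted (left) and after subtracting the median of all tested entries (right); diamonds are the fit with TMM and all libraries, circles the fits with 1 library left out and squares the other alternatives. As fitted, IMAT minus SAT ran from -2.84 to -0.59, and relative to the median from -1.26 to -0.76. Subtracting the median removes most of a change of scaling by construction.

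Shares of the counts were also tested directly, over libraries. As a share of all counts, miR-204-5p was higher in SAT than in VAT by a log2 difference of 5.79, higher in IMAT than in VAT by 2.94, and lower in IMAT than in SAT by -2.85 (two-sided exact permutation tests, p = 0.016, 0.016 and 0.0079, adjusted p = 0.019 each over 6 tests; these are the smallest p these group sizes allow). The depots did not overlap in any of the 3, as was so for 16.5, 32.7 and 45.0% of all entries in the same order. With entries of the same reads joined in the total, the differences were 5.84, 3.87 and -1.97, each with the same adjusted p of 0.019. As a share of the counts outside the muscle list, SAT exceeded VAT by 5.88 and IMAT exceeded VAT by 5.40 (exact p = 0.016 and adjusted p = 0.019 each). IMAT and SAT then differed by -0.49 (exact permutation test, p = 0.25, adjusted p = 0.25), and their libraries overlapped. On the non-muscle scale 17.1% of all entries did not overlap in SAT against VAT, 16.8% in IMAT against VAT and 16.2% in IMAT against SAT.

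The IMAT libraries 1 to 5 held 436, 441, 418, 793 and 748 non-muscle CPM. Replicates 4 and 5 lay apart from the other IMAT libraries, and they were the IMAT libraries with the smallest muscle shares, 79.4 and 65.5%, against 83.6 to 89.6%. SAT libraries 1 to 5 held 1502, 411, 522, 750 and 1071, so that all IMAT libraries fell within the SAT range. The VAT libraries 1, 3, 4 and 5 held 11.1, 37.3, 7.66 and 8.59.

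Set against muscle miRNAs within the same library, miR-204-5p did not keep a fixed ratio. For each 1000 reads on the muscle list there were 0.051 to 0.394 reads of miR-204-5p in IMAT, 3.86 to 21.5 in SAT and 0.766 to 8.61 in VAT. IMAT, with the most muscle miRNA, had the fewest miR-204-5p reads for each muscle read, and no IMAT library reached the lowest library of another depot. Muscle reads are the denominator here, so a large muscle share by itself lowers the ratio. Whether muscle RNA is a source of miR-204-5p was not tested. With entries of the same reads joined, the ratio was 0.129 to 1.005 in IMAT, 9.14 to 50.2 in SAT and 1.94 to 19.2 in VAT. In VAT the library with the largest muscle share, replicate 3 at 4.65% (exact 95% interval 4.63 to 4.67%), had the highest miR-204-5p level and the lowest ratio. SAT 4, with a muscle share of 3.37%, below that of VAT 3, held 724.53 deposited CPM of miR-204-5p against 35.58 in VAT 3.

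**Figure D4:**
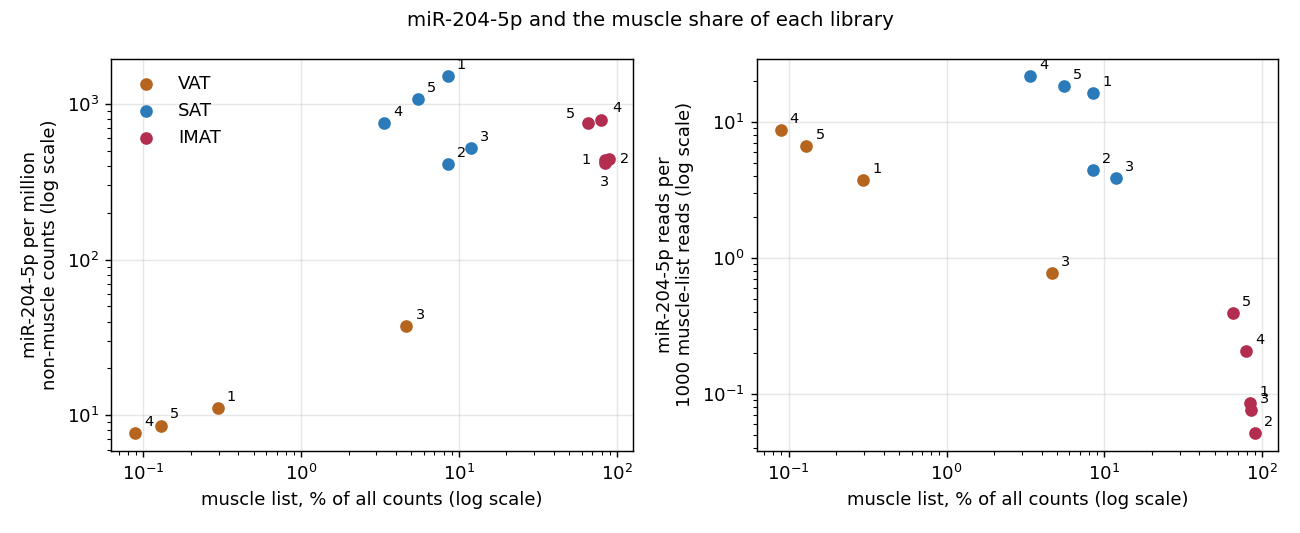
Share of counts on the muscle list in each library (x axis, %, log scale) against miR-204-5p in non-muscle CPM (left) and per 1000 muscle-list reads (right, both on log axes); points are libraries, numbered by replicate. IMAT lies at the right of both panels, with 418 to 793 non-muscle CPM and with 0.051 to 0.394 reads for each 1000 muscle-list reads, lower than every other library. Muscle-list reads enter both axes of the right panel, so a fall towards the right is partly built in.

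Markers of other cell types differed between the depots too, and their part in the miR-204-5p differences was not tested. The epithelia and skin list (miR-141, miR-200, miR-203, miR-205 and miR-429; 12 entries, 8 distinct) had 4 entries (3 distinct) higher and 0 lower in SAT against VAT, and the same 4 higher and 0 lower in IMAT against VAT (edgeR; 0 and 3 lower at an unadjusted p under 0.05, 0 and 3 in DESeq2, 0 and 8 in limma). They were miR-205b-5p, miR-203b-3p and 2 miR-203a-3p entries with the same reads, the last named after its values were seen. Over all entries 7.34% were higher in SAT and 7.65% higher in IMAT against VAT. The median of the list was 0.36 in SAT against VAT, with -0.05 for all entries. In IMAT against VAT it was -0.98, below the -0.60 of all entries. In SAT against VAT library totals, DESeq2 and limma each gave 4 higher as well, but in IMAT against VAT library totals and limma each gave 0 higher and 8 lower. The list summed to 280 to 791 TMM-scaled CPM in VAT, 464 to 1125 in SAT and 175 to 584 in IMAT, and these ranges overlapped.

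Of the 9 muscle entries, 5 were higher in SAT than in VAT, where 7.34% of all entries were (3 with library totals, 8 in limma), and 8 were higher in IMAT than in VAT, where 7.65% of all entries were. Of the gut and liver list, 2 of 3 tested entries were lower in SAT than in VAT and 3 of 3 lower in IMAT than in VAT, and of the pancreas list, 3 of 6 were lower in SAT than in VAT and 0 of 6 passed in IMAT against VAT (edgeR; 3 lower at an unadjusted p under 0.05, 2 in DESeq2 and 6 in limma). Over all entries 5.2% were lower in SAT and 5.81% lower in IMAT against VAT. In IMAT against VAT limma called 160 of all 327 entries lower and DESeq2 50.

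miR-126, a miRNA of endothelium, held 52127 to 82362 CPM of all counts in SAT and 12319 to 43680 in VAT. The 7 stromal and smooth muscle entries summed to 76019 to 108846 in SAT and 24155 to 64183 in VAT. Neither overlapped, as was so for 16.5% of all single entries in this comparison. On the TMM scale both overlapped, with 36364 to 56760 in SAT and 8058 to 40193 in VAT for miR-126, and 44878 to 91334 in SAT and 15858 to 47857 in VAT for the stromal list. Of these 8 entries 0 passed the edgeR test in SAT against VAT (3 at an unadjusted p under 0.05, 0 in DESeq2 and 3 in limma). Over all 327 entries 12.5% passed in edgeR, and 63 entries passed in DESeq2 and 55 in limma. The 6 entries of neurons and sensory cells were summed as well. Over all counts they held 150 to 449 CPM in VAT, 65.8 to 115 in SAT and 5.52 to 29.3 in IMAT. With TMM scaling they held 98.8 to 293, 45.4 to 82.0 and 12.5 to 42.4 in the same order. In edgeR 2 of 6 were lower in IMAT against VAT, where 5.81% of all entries were. In the other comparisons 0 of 6 passed, where 12.5% of all entries passed in SAT against VAT and 6.73% in IMAT against SAT. The members divided in IMAT against SAT, from -1.68 to 5.41, with a median of 1.15 (-1.40 over the 4 distinct ones).

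Other miRNAs described in mammals as promoting fat cell formation were set beside miR-204-5p. Of the 19 entries in that list (15 distinct; miR-21, miR-30, miR-103, miR-107, miR-143, miR-148, miR-204, miR-210 and miR-375), miR-204-5p was the only one higher in SAT than in VAT, none was lower, and 18 did not pass; with library totals 2 were higher, and DESeq2 called 1 lower. The median log2 difference of the list was -0.35 (-0.18 over the 15 distinct ones), against -0.05 for all entries. Of all entries 7.34% passed upwards and 5.2% downwards, so the list's count is near that of all entries. Between IMAT and VAT, 2 of 19 were higher and none lower (4 lower at an unadjusted p under 0.05 and in DESeq2, 13 in limma), with a median of -0.50 against -0.60, where 7.65% of all entries passed upwards and 5.81% downwards. These were miR-204-5p and miR-210-5p, the latter a miRNA whose precursor is induced when oxygen is low, at 2.29 ± 0.50 (SE; edgeR adjusted p = 0.0063) with 124.1 ± 69.9 TMM-scaled CPM in IMAT (SD, n = 5) and 25.3 ± 9.92 in VAT (n = 4), and its libraries overlapped. With library totals only it was at 0.74 (edgeR adjusted p = 0.14), and in that scaling, where the median of all entries is lower, the directions of the list turned: 1 was higher, miR-204-5p, and 10 were lower. Between IMAT and SAT 0 of the 19 passed in edgeR, where 6.73% of all entries passed, so 0 does not set this list apart. Of the 19, 3 were lower at an unadjusted p under 0.05 and 1 was higher in DESeq2. In limma and with library totals 9 were lower. Of all 327 entries in this comparison, limma called 174 in either direction, library totals 131 and DESeq2 47.

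Of 25 listed entries for miRNAs described as targeting RUNX2, 23 were tested (17 distinct). Entries of both arms were listed, such as miR-137-5p and miR-137-3p, and whether each arm targets RUNX2 was not tested. In SAT against VAT 4 were higher (3 distinct) and none lower (1 lower at an unadjusted p under 0.05, 1 in DESeq2 and 0 in limma), with a median of 0.61 against -0.05 for all entries, of which 7.34% were higher and 5.2% lower. Beside miR-204-5p these were miR-205b-5p, a miRNA of skin epithelium, at 4.52 ± 0.87 (SE; edgeR adjusted p = 0.0033), and miR-133a, which is made with miR-1 in muscle, at 3.34 ± 0.90 (edgeR adjusted p = 0.028; 2 entries with the same reads). The miR-133a call was lost in 14 of 23 alternatives. Among them were median-ratio factors (edgeR adjusted p = 0.072), library totals (0.054), no filter (0.15) and only the 2 depots compared (0.12). Fits without VAT 1, VAT 4, VAT 5, SAT 3 or any 1 IMAT library also lost it (edgeR adjusted p = 0.063 to 0.19).

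In IMAT against VAT, 5 of the 23 were higher (4 distinct) and 1 lower, with a median of 0.91 against -0.60 for all entries, of which 7.65% were higher and 5.81% lower. The split depended on the method, with 4 higher and 5 lower under library totals and in limma, and 9 higher and 3 lower in DESeq2. miR-133a was higher by 7.92 ± 1.12 (SE; edgeR adjusted p = 0.00035), as it also stands in the muscle list. miR-205b-5p was higher by 3.16 ± 0.82 (edgeR adjusted p = 0.02), from 4 to 93 reads a library in IMAT and 1 to 15 in VAT. Its call was lost in 8 of 26 alternatives, among them without VAT 1 (edgeR adjusted p = 0.084), VAT 5 (0.066) or IMAT 4 (0.056). miR-23b-3p, of a cluster with miR-27b in mammals, was higher by 2.08 ± 0.56 (edgeR adjusted p = 0.022). That call was lost in 5 of 26 alternatives, among them without VAT 3 (edgeR adjusted p = 0.057) or VAT 5 (0.054). With library totals only, miR-205b-5p was at 1.84 (edgeR adjusted p = 0.12) and miR-23b-3p at 0.55 (0.41). miR-135a-5p, of a family that also lowers the signal transducer SMAD5 in mammals, was listed at 0 in all 5 IMAT libraries. It held 30 to 111 reads a library in VAT (edgeR adjusted p = 0.01). Its call was lost in 1 of 26 alternatives, with no filter (edgeR adjusted p = 0.053).

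Between IMAT and SAT, 2 of the 23 were higher, both of them miR-133a entries (4.58 ± 0.87, SE; edgeR adjusted p = 0.0089), and 2 were lower, with 3.67% of all entries called higher and 3.06% lower. Library totals gave 2 higher and 8 lower, limma 3 and 12, and DESeq2 3 and 3. The lower ones were miR-135a-5p, which held 0 to 39 reads a library in SAT (edgeR adjusted p = 0.018), and miR-205a-3p at -1.77 ± 0.46 (edgeR adjusted p = 0.032). For miR-135a-5p the call was lost in 2 of 26 alternatives, with no filter (edgeR adjusted p = 0.12) and with only the 2 depots compared (0.056). The miR-205a-3p call was lost in 18 of 26 alternatives. Among them were median-ratio factors (edgeR adjusted p = 0.057), the muscle list left out of the totals (0.15) and a replicate block (0.11). Fits without VAT 1, any 1 SAT library, or IMAT 1, 2, 3 or 4 also lost it (adjusted p = 0.054 to 0.18).

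miRNAs described as restraining fat cell formation were the counterpart list, with 33 entries of which 31 were tested (24 distinct). In SAT against VAT 3 were higher and none lower (2 lower at an unadjusted p under 0.05, 4 in DESeq2 and 0 in limma). The median of the list was 0.09, but -0.19 over the 24 distinct ones, against -0.05 for all entries. Of all entries 7.34% were higher, a share near that of the list. miR-27b-3p, which lowers the adipocyte regulator PPARG in mammals, was higher by 2.03 ± 0.37 (SE; edgeR adjusted p = 0.0025), with 1666 to 2690 TMM-scaled CPM in SAT and 349 to 796 in VAT. let-7c-5p and let-7b-5p, of the let-7 family that limits the division of precursor cells, were higher by 2.20 ± 0.47 and 1.41 ± 0.41 (edgeR adjusted p = 0.0067 and 0.039). The let-7b-5p call was lost in 17 of 26 alternatives. Among them were median-ratio factors (edgeR adjusted p = 0.072), library totals (0.098), the muscle list left out of the totals (0.097) and a replicate block (0.096). Fits without VAT 1, VAT 3, VAT 5, any 1 SAT library or IMAT 4 also lost it (edgeR adjusted p = 0.057 to 0.10). In IMAT against VAT 1 was higher and 1 lower, where 7.65% of all entries were higher and 5.81% lower. miR-27b-3p was higher by 1.65 ± 0.36 and miR-27c-3p lower by -1.22 ± 0.33 (edgeR adjusted p = 0.0063 and 0.022). With library totals only, 0 of the list were higher and 19 lower, and miR-27b-3p was at 0.13 (edgeR adjusted p = 0.72). The miR-27c-3p call was lost in 7 of 26 alternatives. Among them were non-muscle library totals (-0.27, edgeR adjusted p = 0.68), no filter (0.20), a replicate block (0.19) and only the 2 depots compared (0.17). Fits without IMAT 1, 2 or 4 also lost it (edgeR adjusted p = 0.059 to 0.068). Between IMAT and SAT 0 of the 31 passed in edgeR (4 lower at an unadjusted p under 0.05, 1 in DESeq2, 24 in limma and 20 with library totals), where 6.73% of all entries passed.

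The profiles of 185 distinct named miRNAs, miR-204-5p among them, were compared over the 14 libraries, each on the log2 TMM-scaled CPM scale and centred on its own mean. Likeness to miR-204-5p was the root mean square difference in log2 units, so a smaller value is a closer profile, and the median over the other named miRNAs was 2.61. The nearest was miR-205b-5p at 0.90. It was followed by miR-196a-5p, of the posterior Hox clusters, at 1.30, by miR-99-5p, a relative of miR-100, at 1.32, by miR-203b-3p, a miRNA of skin epithelium, at 1.32, and by miR-196b-5p at 1.32. The last 3 cannot be ranked against each other at this precision. Library factors cancel in this measure except for the small constant added before the log, and with library totals the same 5 came first, in another order after miR-205b-5p.

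All 5 were lowest in VAT on the TMM scale, but they divided over the other depots. They were picked for likeness over these same 14 libraries, so highs and lows shared with miR-204-5p follow from the choice. miR-205b-5p held 21.2 ± 12.8 CPM in SAT (SD, n = 5), 8.25 ± 4.49 in IMAT (n = 5) and 0.91 ± 0.67 in VAT (n = 4), the same order of means as miR-204-5p, at a much lower level. Like miR-204-5p it was highest within SAT in replicates 1 and 5 (34.4 and 35.7) and lowest in replicate 2 (8.30). miR-99-5p held 15006 ± 4186 in SAT, 4347 ± 1085 in IMAT and 1182 ± 325 in VAT, and its difference of -1.79 ± 0.30 between IMAT and SAT passed the test (SE; edgeR adjusted p = 0.0062). miR-196b-5p held 45.0 ± 13.9 in SAT and 98.4 ± 50.1 in IMAT, with the mean higher in IMAT, unlike miR-204-5p (1.13 ± 0.42, SE; edgeR adjusted p = 0.12). miR-196a-5p was listed at 0 in VAT 1 and VAT 4. For miR-203b-3p the IMAT mean of 19.6 ± 27.4 rests on replicate 5 at 68.0, the next IMAT library being at 14.1.

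**Figure D5:**
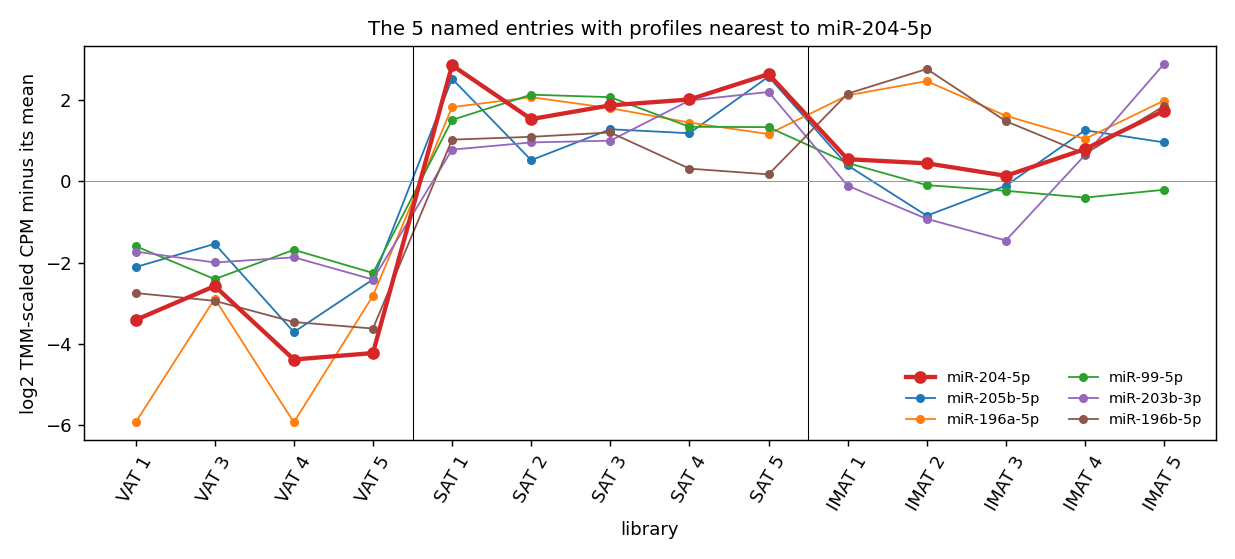
Log2 TMM-scaled CPM of miR-204-5p (thick line) and of the 5 named miRNAs with the nearest profiles, each minus its own mean over the 14 libraries (y axis), by library (x axis); vertical lines part the depots, and lines join libraries only to guide the eye. All 6 lie below their means in VAT, and miR-205b-5p, at a root mean square difference of 0.90, shares the high SAT 1 and SAT 5 values of miR-204-5p. The 5 were picked by this difference over the same 14 libraries, so shared highs and lows follow from the choice.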

How the data were processed

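Small RNA libraries were assigned to depots by their titles. The authors deposited raw read counts per miRNA entry, with no normalization. A second deposited column, which the header calls TPM, equals CPM (count over the summed counts without the table's first entry) within 0.005. The submitters' processing notes name Trimmomatic 0.30 and edgeR 3.4.6; not given in the sources used here were their roles, the aligner and the build. A further 2 columns matched no sample and were not used.

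edgeR 4.0.16 (R 4.3.3) tested the 327 of 899 entries present in at least 4 libraries: TMM scaling, quasi-likelihood, depot as the only term, all 14 libraries in 1 fit, two-sided, Benjamini-Hochberg adjustment within each comparison, threshold 0.05. The SE is the log2 difference over the root of F. The fit was also run on simulated counts with 1 fixed spread and as many rises as falls. These did not imitate the muscle share of IMAT, so they do not check the comparisons with IMAT. Shares (0.5 reads added, log2) had exact two-sided permutation tests in scipy 1.17.1. Log2 profiles used a prior count of 2. Alternatives used limma 3.58.1, DESeq2 1.42.0, other scalings, filters and sample sets. Entries carrying the same reads differed by at most 2 reads or 10% wherever both were present (at least 4 libraries, at least 20 reads in 1). Named were miR-204-5p, up to 6 list members passing in each comparison, by adjusted p, and the 5 nearest profiles. miR-204 and all lists were chosen with earlier results of these data known. The lists for fat cell formation and RUNX2 hold both arms (5p and 3p) of some miRNAs.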

Additional observations from a re-analysis of the deposited data

Results flagged for a closer look

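In 5 of 30 groups of libraries examined, 1 library lay far from the others of its depot. Its gap to the nearest library was 0.717 to 0.954 of the range of the depot. The values were not logged, and a high library stands out less on a log scale. Chance alone gives about 1 in 20 for independent groups of normally distributed values, but these groups share libraries and related measures. All 5 cases were VAT 3 or IMAT 5, so the count cannot be set against that rate. In VAT, replicate 3 held 35.58 deposited CPM of miR-204-5p with the nearest library at 11.07, and 37.3 non-muscle CPM with the nearest at 11.1. The same library held 4.65% of its counts on the muscle list, with the nearest VAT library at 0.297%. Whether the muscle RNA bears on the miR-204-5p level there was not tested; without VAT 3 the log2 difference of miR-204-5p was 6.28 in SAT minus VAT and 4.86 in IMAT minus VAT. In IMAT, replicate 5 held 374 TMM-scaled CPM of miR-204-5p with the nearest library at 193.9, and 68.0 of miR-203b-3p with the nearest at 14.1. Without IMAT 5 the log2 difference of miR-204-5p was 3.95 in IMAT minus VAT (edgeR adjusted p = 0.00084) and -1.36 in IMAT minus SAT (edgeR adjusted p = 0.15).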

How the results depend on the processing

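miR-204-5p kept its direction and call in all 26 alternatives for SAT minus VAT (log2 5.18 to 6.28) and for IMAT minus VAT (2.84 to 5.13). In IMAT minus SAT the call was gained with library totals only (-2.71) and in limma on log2(CPM + 1) (-2.84), and not made in the other 24 (adjusted p 0.057 to 0.53); leaving out 1 library gave -1.56 to -0.88. The 6 share tests stayed on their side of the threshold in every alternative run. Where depots did not overlap, leaving out 1 library could not make them overlap. Those runs had to return the smallest p possible again, so they lend no support. Joining entries of the same reads moved the share of all counts from 2.94 to 3.87 in IMAT minus VAT and from -2.85 to -1.97 in IMAT minus SAT. Same-numbered libraries of different depots were not seen to deviate together, though the pairs are few. A correlation over 0.1 was found in 3 of 13 such pairs and in 13 of 52 differently numbered pairs. In 4 of 26 cases the best partner had the same number. With the replicate block miR-204-5p was at 5.76, 4.66 and -1.39 (SAT minus VAT, IMAT minus VAT, IMAT minus SAT), and calls over all entries went from 41, 44 and 22 to 23, 25 and 16. Library totals gave 33, 162 and 131 calls in the same order, limma 55, 176 and 174, DESeq2 63, 86 and 47, no filter 17, 26 and 11, and the fits of only the compared depots 39, 27 and 38. Non-muscle totals gave 27 calls in SAT minus VAT, and the muscle list left out with median-ratio factors 13 in IMAT minus SAT. Leaving out 1 library gave counts as low as 26 in SAT minus VAT (without SAT 2 or SAT 3; 27 without VAT 1 or VAT 5) and as high as 68 in IMAT minus VAT (without VAT 4 or IMAT 5) and 47 in IMAT minus SAT (without VAT 4; 37 without IMAT 5). The VAT level rests on 51 to 161 reads of miR-204-5p a library.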
